A study of Mus musculus with 25 samples.

Results

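Described here are 10 genes in 5 pairs, each pair made of 2 genes that lie close together on 1 mouse chromosome and whose RNA levels in dorsal root ganglia fell into 2 levels over the same strains. The pairs were Ocel1 with Colgalt1 on chromosome 8, Efcab6 with Pnpla5 on chromosome 15, Tnip1 with Lyrm7 on chromosome 11, Pigt with Rbpjl on chromosome 2, and Dpp7 with Tmem203, also on chromosome 2. The 10 genes come from 16220 in the deposited table. They were chosen from the measured levels themselves, for a clear pair of levels over 25 strains and for the match of the sides between partners. Sides, steps and agreement are therefore given below as descriptions with no test. The first pair was chosen as the one in which the partners lay on opposite sides.

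RNA was sequenced from dorsal root ganglia, the clusters of sensory nerve cell bodies beside the spinal cord, of 25 BXD strains aged 8 weeks. BXD strains are recombinant inbred lines descended from 2 parental strains, C57BL6/J and DBA2/J. There were 9 strains whose names end in RwwJ and 16 whose names end in TyJ, with 1 library per strain and no unmixed parental strain among them. Neither sex nor how many animals gave each library is given in the sources used here, so a p-value below measures only the spread between strains with 1 library each. Values are scaled counts, which are whole-number read counts brought by the authors to a common scale, and log2 values are of the scaled count plus 1.

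In a recombinant inbred strain each stretch of chromosome is, as a rule, homozygous for 1 parent's sequence, and genes that lie side by side are usually inherited together from the same parent. Where the parental versions of a gene give different RNA levels, the level then takes a high or a low value from strain to strain. Which side carried which parent's sequence was not analysed here, and the level of a gene is not set against any genotype below. In whole tissue, fewer cells of a type and less RNA per cell cannot be told apart.

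The estimated depth ran from 20020000 to 40150000 reads per library, from 21790000 to 31690000 in RwwJ strains and from 20020000 to 40150000 in TyJ strains. The neuronal markers Tubb3 and Prph were at 70436 to 109907 and 43576 to 78205 scaled counts over the 25 strains. The skeletal muscle gene Acta1 ran from 76 to 8131 and Mobp, a marker of central myelin, from 15 to 2992. All 7 of 7 neuronal, 7 of 7 muscle and 8 of 9 spinal cord markers were measured.

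The stretches of 250 bases just before the annotated start of 5 of these genes are shown because both pairs with every strain in accord, and the gene with the widest step, are among them. They are RefSeq sequences of the C57BL/6J reference, build GRCm38.p6, 5′ to 3′ along the gene's own strand. Ocel1 is at chr8:71371048-71371297 on the plus strand, and Colgalt1 at chr8:71610774-71611023 on the plus strand, the upstream one of 2 starts listed. Pnpla5 is at chr15:84123176-84123425 on the minus strand. Dpp7 is at chr2:25356333-25356582 on the minus strand and Tmem203 at chr2:25255189-25255438 on the plus strand. Capitals mark CCAAT or its complement ATTGG, and GGGCGG or its complement CCGCCC, found on either strand.
Ocel1: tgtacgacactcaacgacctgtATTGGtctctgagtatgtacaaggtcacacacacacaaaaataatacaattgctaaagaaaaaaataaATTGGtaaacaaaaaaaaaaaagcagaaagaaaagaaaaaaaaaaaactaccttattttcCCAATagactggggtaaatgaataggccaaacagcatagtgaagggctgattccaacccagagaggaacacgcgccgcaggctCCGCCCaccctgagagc
Colgalt1: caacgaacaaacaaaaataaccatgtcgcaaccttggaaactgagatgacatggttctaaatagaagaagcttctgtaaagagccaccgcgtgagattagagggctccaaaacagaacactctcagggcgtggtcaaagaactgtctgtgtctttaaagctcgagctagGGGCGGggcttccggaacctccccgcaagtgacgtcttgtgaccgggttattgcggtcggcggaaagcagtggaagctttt
Pnpla5: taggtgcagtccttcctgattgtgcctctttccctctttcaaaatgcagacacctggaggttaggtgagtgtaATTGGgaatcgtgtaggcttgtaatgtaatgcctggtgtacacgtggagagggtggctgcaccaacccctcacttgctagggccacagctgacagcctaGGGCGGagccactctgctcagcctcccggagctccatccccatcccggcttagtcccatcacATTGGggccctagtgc
Dpp7: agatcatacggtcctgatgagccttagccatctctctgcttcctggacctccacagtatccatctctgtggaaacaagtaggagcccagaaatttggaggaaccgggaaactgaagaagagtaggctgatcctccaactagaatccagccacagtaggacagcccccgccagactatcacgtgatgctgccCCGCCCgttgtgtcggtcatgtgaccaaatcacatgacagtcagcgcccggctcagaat
Tmem203: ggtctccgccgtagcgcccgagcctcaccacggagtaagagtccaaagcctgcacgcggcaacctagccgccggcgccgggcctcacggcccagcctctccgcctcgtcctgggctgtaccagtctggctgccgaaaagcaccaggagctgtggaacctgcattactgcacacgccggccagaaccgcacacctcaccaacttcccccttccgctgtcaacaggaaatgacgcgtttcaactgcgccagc

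The window of Ocel1 held 3 CCAAT matches, that of Pnpla5 held 2, and those of Colgalt1, Dpp7 and Tmem203 held 0. GGGCGG occurred 1 time in the windows of Ocel1, Colgalt1, Pnpla5 and Dpp7 and 0 times in that of Tmem203. The other motif searched, TATAAA or its complement TTTATA, was in none of these 5 windows. Of 32851 windows of the same length over the genome, 33.8% held CCAAT, 32.7% held GGGCGG and 12.4% held TATAAA, and the motifs share no letters in the windows shown. The number of CG steps was 6 for Ocel1, 14 for Colgalt1, 5 for Pnpla5, 9 for Dpp7 and 22 for Tmem203, against a median of 6 over all windows (quartiles 2 and 16). Partners thus differed in the number of CG steps, 6 against 14 in the opposite pair and 9 against 22 in the last pair. How often any 2 genes differ by as much was not worked out. A match is a match of letters and no evidence of binding. A window was found for 9 of the 10 genes; Efcab6 had no entry in the table used.

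Each gene's 25 ordered values were split at the point that put most of the variance between the sides, leaving no fewer than 5 strains to a side. A gene met the 2-level criterion when at least 85% of its log2 variance lay between its sides and the sides left a gap. All 10 genes met it, because they were chosen so, against 299 of 16152 genes tested (1.85%). The step, the difference of the side medians, had a median of 0.80 on the log2 scale over the 10 genes, against 0.38 over all tested genes and 2.28 over the 299. The 10 genes thus had smaller steps, by their median, than the 2-level genes as a set. The variance between sides was 85.1% to 94.8% in the 10 genes. The gene just inside the criterion in the whole table was Cmpk2 (85.003%), and the one just outside was Gm17494 (84.98%).

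**Figure D1:**
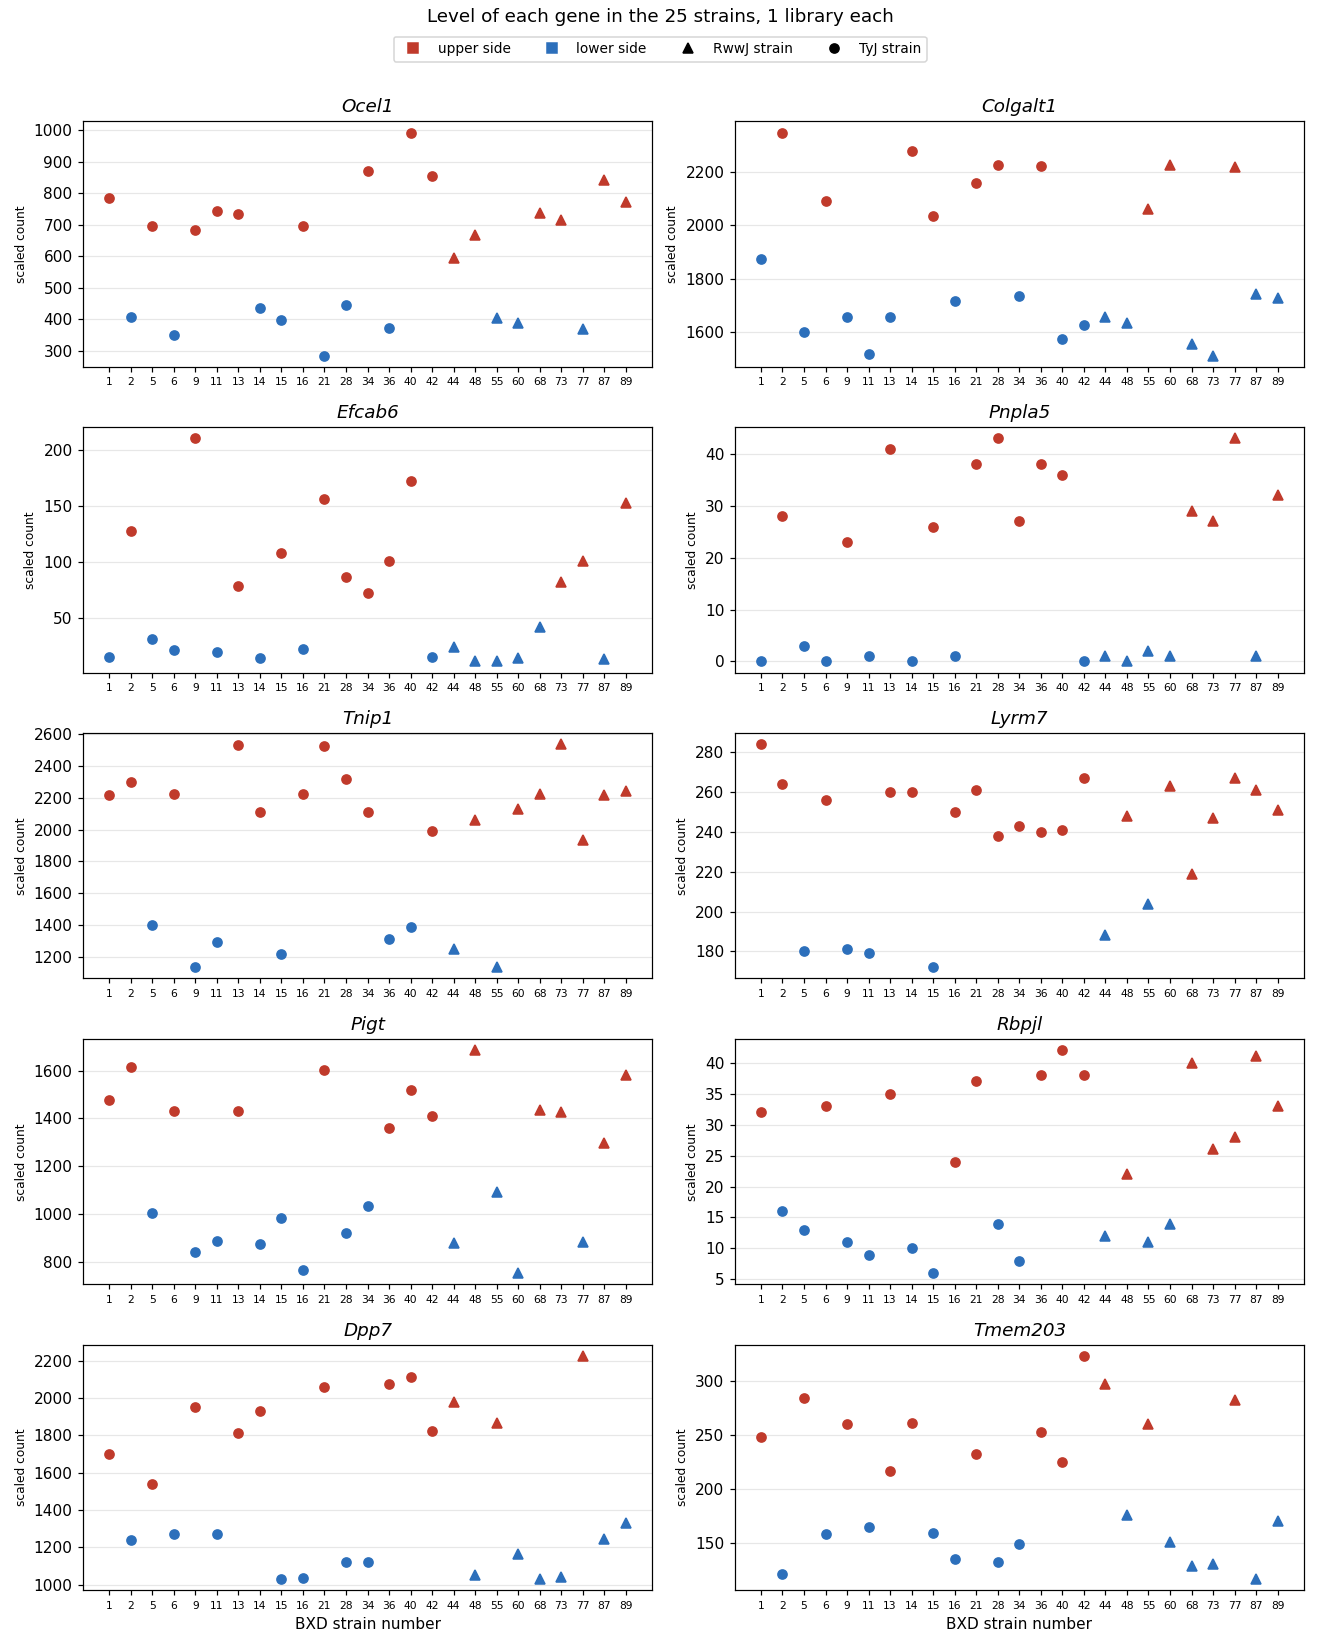
Scaled count (vertical axis) of each of the 10 genes in the 25 strains, ordered by strain number along the horizontal axis, with 1 point per strain (1 library), red for the upper side and blue for the lower, triangles for RwwJ and circles for TyJ. Every gene leaves an empty band between its sides, widest on the log2 scale for Pnpla5 (2.58) and narrowest for Lyrm7 (0.10).

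Ocel1, which encodes a protein with an occludin/ELL domain, and Colgalt1, the enzyme that adds galactose to hydroxylysine in collagen, went in opposite directions. Ocel1 (ENSMUSG00000002396) was at 596 to 993 scaled counts in the 15 strains of its upper side, with a median of 739, against 285 to 444 in the 10 strains of its lower side, with a median of 392. The lowest value was in BXD21 and the highest in BXD40. Its step was 0.91, a fold of 1.89 between the side medians.

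Colgalt1 (ENSMUSG00000034807) was at 2033 to 2346 scaled counts in 10 upper-side strains, with a median of 2218, against 1513 to 1873 in 15 lower-side strains, with a median of 1656. Its step of 0.42 was the smallest of the 10 genes, a fold of 1.34. The 10 strains with high Colgalt1 were the 10 with low Ocel1: BXD2, BXD6, BXD14, BXD15, BXD21, BXD28, BXD36, BXD55, BXD60 and BXD77. The partners were on opposite sides in 25 of 25 strains, in 9 of 9 RwwJ and 16 of 16 TyJ strains. The log2 difference of Ocel1 minus Colgalt1 was -1.47 to -0.67 where Ocel1 was high, with a median of -1.16, against -2.91 to -2.32 where it was low, with a median of -2.52. The strain nearest the Colgalt1 gap was BXD1 at 1873, against 1743 in the next lower-side strain, BXD87.

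Efcab6, which encodes an EF-hand protein, and Pnpla5, a member of the patatin-like phospholipase family, had the widest steps of the 10. Efcab6 (ENSMUSG00000022441) was at 72 to 210 scaled counts in 12 upper-side strains, with a median of 104.5, against 11 to 42 in 13 lower-side strains, with a median of 15. Its step was 2.72, a fold of 6.97. Pnpla5 (ENSMUSG00000018868) was at 23 to 43 scaled counts in 13 upper-side strains, with a median of 32, against 0 to 3 in 12 lower-side strains, of which 5 were at 0. Its step was 4.04. An estimated 441 reads stood behind the upper side and 10 behind the lower, a rate 38.7 times higher (95% counting interval 20.8 to 81.2). The sides were set by these same values, so the ratio is a description and no test. Its interval pools the strains of a side and leaves out the spread between them. Pnpla5 was thus close to undetected in its lower-side strains, and its step depends on the number added before taking logs: with 10 added it was 1.93. That of Rbpjl, below, was 1.07 with 10 added.

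Both genes were high in 12 strains and both low in 12, so the sides matched in 24 of 25 strains, 8 of 9 RwwJ and 16 of 16 TyJ strains. The exception was BXD68, an RwwJ strain, with 42 scaled counts of Efcab6 on the lower side and 29 of Pnpla5 on the upper. The Efcab6 value of BXD68 was the highest on its side, followed by 31 in BXD5. Its counting interval of 30.8 to 56.1 ended below 72, the lowest value of the upper side. Within RwwJ strains alone, BXD68 was placed with the upper Efcab6 strains and the sides matched in 100% of strains, so its side depends on which strains are split.

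Tnip1 encodes a partner of the ubiquitin-editing protein A20 that restrains NF-kB signalling, and Lyrm7 a mitochondrial factor for the assembly of respiratory complex III. Tnip1 (ENSMUSG00000020400) was at 1933 to 2537 scaled counts in 17 upper-side strains, with a median of 2223, against 1134 to 1398 in 8 lower-side strains, with a median of 1271.5. Its step was 0.81, a fold of 1.75. Lyrm7 (ENSMUSG00000020268) was at 219 to 284 scaled counts in 19 upper-side strains, with a median of 256, against 172 to 204 in 6 lower-side strains, with a median of 180.5. Its step was 0.50, a fold of 1.42, and its gap of 0.10 was the narrowest of the 10.

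The sides matched in 23 of 25 strains, 9 of 9 RwwJ and 14 of 16 TyJ strains. All 6 strains with low Lyrm7, BXD5, BXD9, BXD11, BXD15, BXD44 and BXD55, also had low Tnip1. The exceptions were BXD36 and BXD40, with 1311 and 1388 scaled counts of Tnip1 on the lower side and 240 and 241 of Lyrm7 on the upper. The counting intervals of those Lyrm7 values, 211 to 272 in BXD36 and 210 to 276 in BXD40, began above 204, the highest value of the lower side. In BXD36 the factor by which reads were scaled, 0.987, was not clearly estimated, so its interval is less sure. The interval of Lyrm7 in BXD68, 192 to 249 around 219, spanned the gap, as did that of BXD55, 179 to 232 around 204, so the Lyrm7 side of these 2 strains was not settled at this depth. Splitting at the largest gap placed BXD68 on the lower side. The log2 difference of Tnip1 minus Lyrm7 was 2.85 to 3.36 where Tnip1 was high, with a median of 3.12, against 2.44 to 2.95 where it was low, with a median of 2.68.

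Pigt encodes a subunit of the GPI transamidase, which attaches proteins to their membrane anchor, and Rbpjl a transcription factor related to the Notch effector RBPJ. Pigt (ENSMUSG00000017721) was at 1297 to 1685 scaled counts in 13 upper-side strains, with a median of 1434, against 752 to 1091 in 12 lower-side strains, with a median of 885. Its step was 0.70, a fold of 1.62. Rbpjl (ENSMUSG00000017007) was at 22 to 42 scaled counts in 14 upper-side strains, with a median of 34, against 6 to 16 in 11 lower-side strains, with a median of 11. Its step was 1.54, a fold of 3.09, at the lowest level per length of the 10.

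The sides matched in 22 of 25 strains, 8 of 9 RwwJ and 14 of 16 TyJ strains. This was the lowest match of the 5 pairs. BXD2 had 1615 scaled counts of Pigt on the upper side and 16 of Rbpjl on the lower. BXD16 and BXD77 had 766 and 882 of Pigt on the lower side and 24 and 28 of Rbpjl on the upper. The counting interval of Rbpjl was 9.76 to 24.1 in BXD2, which reached the lowest upper-side value of 22, and 15.4 to 35.1 in BXD16, which reached the highest lower-side value of 16. Only in BXD77, at 18.4 to 41.96, did it stay clear of the other side, so at this depth the Rbpjl side of the other 2 strains was not settled. Intervals of Rbpjl were worked out only for strains in which the partners parted. The sides of matching strains near the gap, such as BXD48 at 22, were not checked in this way. The match of 22 of 25 therefore carries a counting error that is not given here.

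The gene next to Pigt on its far side, Gm14317, a long intergenic noncoding RNA, was at 0 to 5 scaled counts where Pigt was high, against 17 to 49 where Pigt was low. It lay opposite Pigt in 25 of 25 strains. In BXD2, BXD16 and BXD77 it was at 0, 32 and 41, on the side that went with Pigt and not with Rbpjl. Matn4, a matrix protein gene next to Rbpjl, was at 372 to 661 where Pigt was high, against 140 to 356 where Pigt was low. In BXD2 and BXD16 it was at 381 and 356, near where these 2 ranges meet. By its own split Matn4 was on the upper side in both, and in BXD77, at 309, on the lower. By that split Matn4 went with Pigt in BXD2 and BXD77 and with Rbpjl in BXD16. The split held 74.2% of the variance of Matn4, under the criterion. The Matn4 ranges on the 2 Pigt sides did not overlap, and by them BXD16 was at the top of the low-Pigt range. Which partner Matn4 went with in BXD16 is therefore not settled.

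Dpp7 encodes a dipeptidyl peptidase of lysosomes and other vesicles, and Tmem203 a membrane protein of the endoplasmic reticulum tied to calcium and STING. Dpp7 (ENSMUSG00000026958) was at 1540 to 2224 scaled counts in 12 upper-side strains, with a median of 1939, against 1030 to 1328 in 13 lower-side strains, with a median of 1123. Its step was 0.79, a fold of 1.73. Tmem203 (ENSMUSG00000078201) was at 217 to 323 scaled counts in the same 12 strains, with a median of 260, against 117 to 176 in the other 13, with a median of 149. Its step was 0.80, a fold of 1.74, so both genes differed between sides by nearly the same factor.

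The 12 strains with both genes high were BXD1, BXD5, BXD9, BXD13, BXD14, BXD21, BXD36, BXD40, BXD42, BXD44, BXD55 and BXD77. The sides matched in 25 of 25 strains, 9 of 9 RwwJ and 16 of 16 TyJ strains. The log2 difference of Dpp7 minus Tmem203 was 2.43 to 3.22 on the upper side, with a median of 2.89, against 2.57 to 3.40 on the lower, with a median of 2.95. The difference between the partners overlapped almost fully between sides, unlike that of Ocel1 and Colgalt1. This contrast follows from the directions of the pairs and their steps, and adds nothing to them.

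The erythroid score, the mean log2 value of 5 of 5 listed markers, ran from 9.45 to 12.9 where Dpp7 was high, with a median of 11.3, against 9.74 to 11.4 where Dpp7 was low, with a median of 10.6. The scaling factor of the libraries ran from 0.880 to 1.25 against 0.622 to 1.17 on the same sides. Each had 20.4% of its variance between the Dpp7 sides, and the sides overlapped in both. The skeletal muscle, erythroid and myelinating Schwann scores were then regressed out and each gene was split anew. The step was 0.52 for Dpp7 and 0.56 for Tmem203, with 80.8% and 70.2% of their variance between the new sides. BXD1 and BXD42 changed side for Dpp7, and BXD1 and BXD40 for Tmem203. These are therefore not shares between the sides given above. After that regression 2 of the 10 genes, Pnpla5 and Tnip1, met the 85% criterion and 8 did not, with Tmem203 the lowest. Pnpla5 met it by a new split in which BXD68 and BXD73 changed side. Dpp7 and Tmem203 then matched in 92% of strains. For Pigt, whose sides held 15.3% of the variance of the endothelial score (8.56 to 9.65 against 8.62 to 9.89), the step after the same regression was 0.55, with 73.2% between sides. The part of the endothelial score and of the scaling factor in these steps was not tested.

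**Figure D2:**
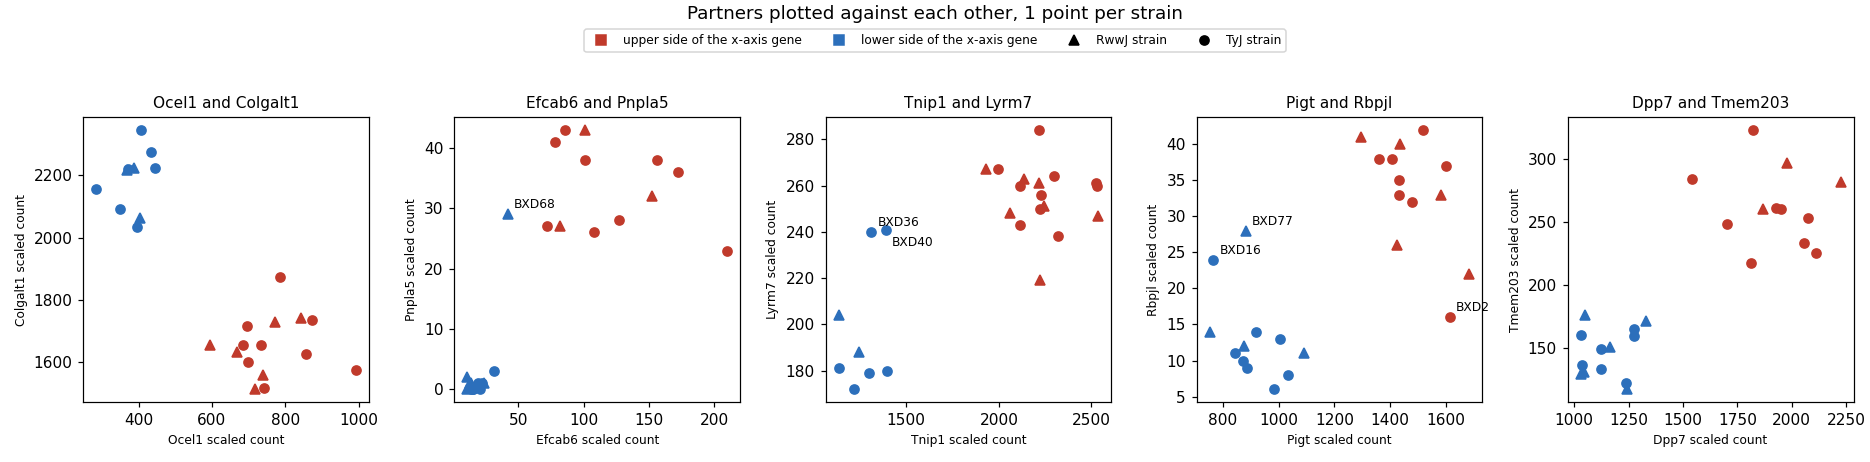
Scaled count of the first gene of each pair (horizontal axis) against that of its partner (vertical axis), 1 point per strain, coloured by the side of the first gene, with triangles for RwwJ and circles for TyJ. Ocel1 and Colgalt1 lie along a falling diagonal and the other 4 pairs along a rising one, and the 6 strains off the diagonal are labelled.

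**Figure D3:**
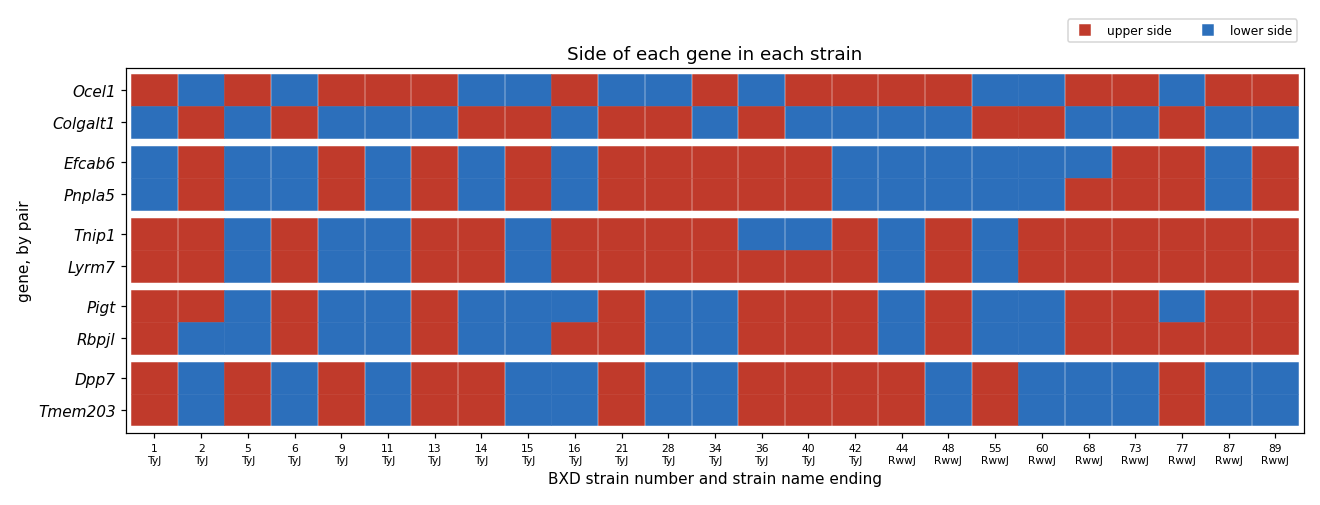
Side of each gene (rows, by pair) in each strain (columns, by strain number and name ending), red for upper and blue for lower. Partners match in every column for Dpp7 and Tmem203, differ in every column for Ocel1 and Colgalt1, and part from their pattern in 1, 2 and 3 columns in the other pairs.

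Compared per kilobase of annotated exon, the medians over 25 strains were 597 scaled counts for Tnip1, 401 for Colgalt1, 398 for Dpp7, 336 for Pigt, 206 for Tmem203, 96.03 for Ocel1, 49.1 for Lyrm7, 10.6 for Pnpla5, 6.55 for Efcab6 and 4.19 for Rbpjl. Tmem203 was above Ocel1 and Lyrm7 above Pnpla5 in 25 of 25 strains. Colgalt1 was above Dpp7 in 12 of 25, so that order did not hold across strains. Pnpla5 was above Efcab6 in only 6 of 25, so within most strains their order was the reverse of that of the 2 medians. On the upper sides Efcab6 was at 16.3 and Pnpla5 at 14.7, and on the lower sides at 2.34 and 0.460.

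Counting error alone gave 7.54% of the variance within sides for Dpp7, 9.32% for Tnip1, 9.94% for Pigt, 11.8% for Ocel1, 20.1% for Colgalt1, 24.5% for Efcab6, 35.0% for Tmem203 and 59.996% for Pnpla5. For Rbpjl it gave 100% and for Lyrm7 135%, so the spread of these 2 genes within a side was no larger than counting gives. The share for Pnpla5 is not reliable. Its 5 strains at 0 were given no counting error, and its other lower-side values, 3 or less, are too low for the formula used. Each step was 4.45 to 7.65 times the standard deviation within sides.

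Within a side, no relation between partners passed the test. Over 10 relations, 2 sides for each of 5 pairs, Pearson's r of the log2 values ran from -0.52 to 0.38. The lowest was for Pigt and Rbpjl in the 12 strains with both genes high (r = -0.52, permutation p = 0.0833; Spearman's rho = -0.36, permutation p = 0.251), and it was -0.25 without the 2 strains farthest from the Pigt median. It was -0.16 without BXD48, and the lowest was then -0.43, for Tnip1 and Lyrm7 in the 6 strains with both low. The highest was for Efcab6 and Pnpla5 in the 12 strains with both low (r = 0.38, permutation p = 0.219; rho = 0.22, permutation p = 0.476), and it was -0.08 without 2 strains. Dpp7 and Tmem203 had r = -0.17 in 12 upper-side strains (permutation p = 0.595; rho = -0.12, permutation p = 0.710) and 0.13 in 13 lower-side strains (permutation p = 0.655; rho = 0.23, permutation p = 0.460). After Benjamini-Hochberg adjustment over the 10 relations, every Pearson p was 0.700 and the Spearman p-values were 0.622 to 0.710. The groups are small, and these values do not show that partners vary independently within a side.

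The genes around each pair were taken as the 10 tested genes on either flank and all tested genes between the partners, by annotation order, 129 in all. Of these, 2 met the 2-level criterion (1.55%), Gm10654 and Gm14317, which is near the 1.85% of all tested genes. A second measure was the share of a gene's variance that lay between the sides of the pair's first gene. Its median was 7.42% in the 36 genes around Ocel1 and Colgalt1, against 2.22% over all tested genes. The medians were 10.02% against 3.49% around Efcab6, 13.2% against 5.05% around Tnip1, 9.40% against 2.60% around Pigt and 10.5% against 5.10% around Dpp7. A share of 50% or more, a limit chosen after the values were seen, was reached by 6 of 36 genes around Ocel1 (0.149% of all tested genes). It was reached by 3 of 21 around Efcab6 (0.0557% of all), 0 of 22 around Tnip1 (0.0495%), 3 of 23 around Pigt (0.0495%) and 4 of 27 around Dpp7 (0.0743%).

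**Figure D4:**
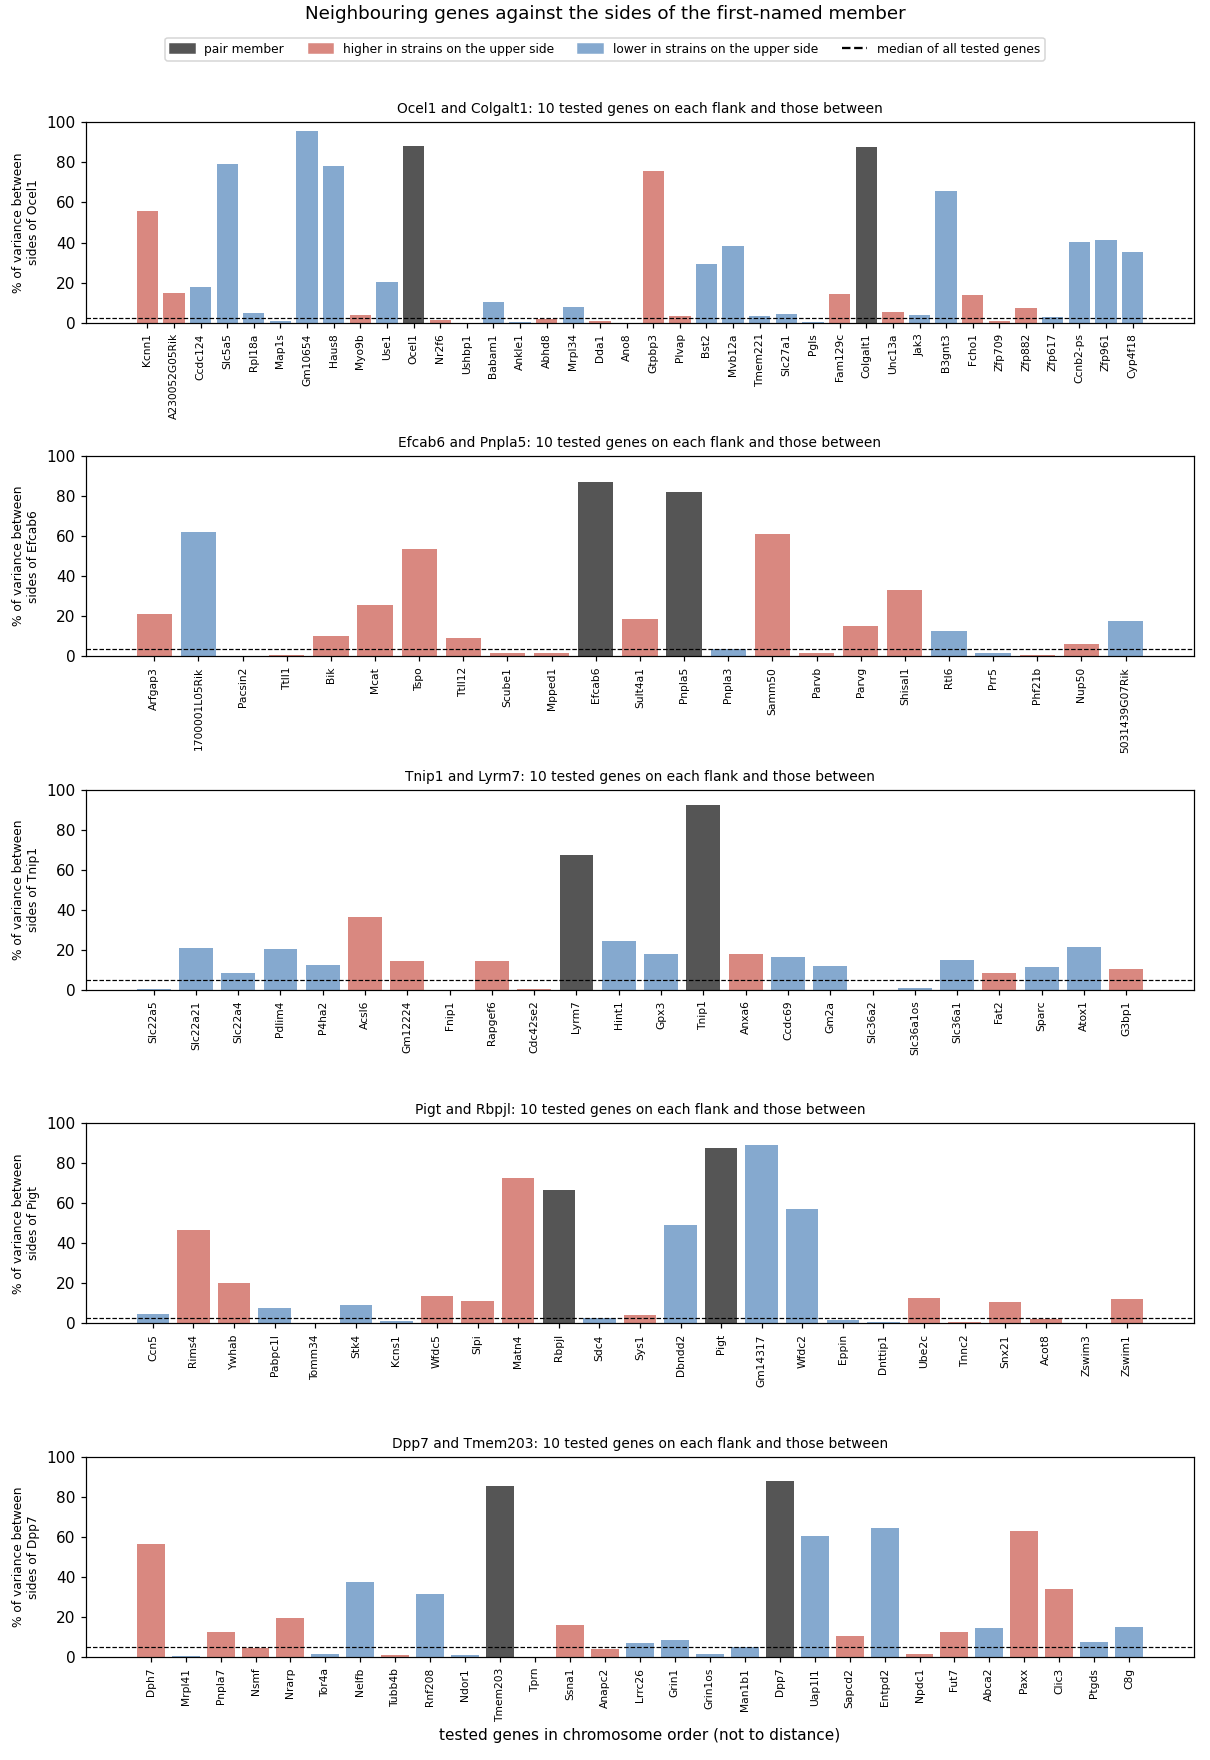
Share of the log2 variance over 25 strains that lies between the sides of the first-named gene (vertical axis, percent) for the tested genes around each pair, in chromosome order and not to distance, with pair members in grey, genes higher on the upper side in red and lower ones in blue, and the median of all tested genes dashed. Most bars between partners are short beside the grey ones, and those over 50% lie in both directions.

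Between Ocel1 and Colgalt1 lay 16 tested genes, and all but 1 had a share of 38.2% or less. The exception was Gtpbp3, a mitochondrial tRNA-modifying GTPase gene, at 666 to 1003 scaled counts where Ocel1 was high against 459 to 647 where it was low (75.6%), the direction of Ocel1. Mvb12a (38.2%) and Bst2 (29.3%) came next. Mvb12a was at 1029 to 1544 scaled counts against 1188 to 2005, and Bst2 at 271 to 804 against 327 to 694. Fam129c was at 14.3%, Babam1 at 10.2% and Mrpl34 at 7.56%. Slc27a1, Plvap, Tmem221, Abhd8, Nr2f6, Dda1, Ankle1, Pgls, Ano8 and Ushbp1 were each at 4.07% or less. Of the 16, 1 thus reached the 50% limit.

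On the outer side of Ocel1 lay Use1 (20.2%), and on that of Colgalt1 lay Unc13a (5.11%). Gm10654, on the Ocel1 flank, was at 0 to 2 scaled counts in the 15 strains with high Ocel1 against 35 to 61 in the 10 with low Ocel1 (95.8%), opposite to Ocel1 in 25 of 25 strains. Slc5a5, the sodium/iodide symporter gene, was at 295 to 574 against 674 to 926 (79.1%), and Haus8, an augmin subunit gene, at 314 to 485 against 536 to 733 (78.2%). Both were on the Ocel1 flank and were high in the strains with high Colgalt1. B3gnt3 (65.7%) was at 6 to 38 against 32 to 102 and Kcnn1 (55.7%) at 1427 to 2123 against 1083 to 1559.

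Sult4a1, the single tested gene between Efcab6 and Pnpla5, was at 22227 to 27147 scaled counts where Efcab6 was high against 21011 to 26335 where it was low (18.5%). The outer neighbours Mpped1 (1.72%) and Pnpla3 (3.71%) had small shares. Farther out, Samm50 was at 2560 to 2970 against 2152 to 2626 (61.2%), Tspo at 1004 to 2259 against 637 to 1464 (53.5%) and the long intergenic RNA 1700001L05Rik at 213 to 493 against 425 to 891 (62.3%). The sides of Tspo and 1700001L05Rik overlapped, as did those of Samm50.

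Hint1 (24.4%) and Gpx3 (18.1%) lay between Lyrm7 and Tnip1, with Cdc42se2 (0.486%) and Anxa6 (17.9%) outside. Hint1 was at 6552 to 13647 scaled counts where Tnip1 was high against 8029 to 15007 where it was low, and Gpx3 at 1863 to 3857 against 2059 to 5710. The highest share among the neighbours was 36.4%, for Acsl6. Sdc4 (2.53%), Sys1 (4.03%) and Dbndd2 (49.2%) lay between Rbpjl and Pigt. Dbndd2 was at 145 to 328 where Pigt was high against 218 to 366 where it was low. Outside lay Matn4 (72.9%) and Gm14317 (89.4%), and beyond Gm14317 Wfdc2 was at 55 to 199 against 152 to 648 (57.2%).

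Between Tmem203 and Dpp7 the 7 tested genes Ssna1, Grin1, Lrrc26, Man1b1, Anapc2, Grin1os and Tprn had shares of 16.2%, 8.78%, 7.15%, 5.16%, 3.94%, 1.65% and 0.0368%. Grin1, which encodes an NMDA receptor subunit, was at 1517 to 2798 where Dpp7 was high against 1645 to 3407 where it was low. The outer neighbours were Ndor1 (0.963%) and Uap1l1, at 423 to 613 against 524 to 921 (60.5%). Entpd2, an ectonucleotidase gene, was at 264 to 447 against 435 to 739 (64.6%), Paxx at 965 to 1459 against 753 to 1114 (63.0%) and Dph7 at 357 to 499 against 293 to 390 (56.6%). Neighbours of this pair with a share over 50% went in both directions, 2 with the pair and 2 against it.

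The library kit does not mark the strand, so reads over exons shared with a gene on the other strand cannot be assigned from the annotation alone. By the annotation, Ocel1 shared 1622 exonic bases with Nr2f6, Colgalt1 495 with Unc13a, Tmem203 300 with Ndor1 and Rbpjl 149 with Matn4. The shares of Nr2f6, Unc13a and Ndor1 between the members' sides were 1.24%, 5.11% and 0.963%. That of Matn4 was 67.6% between the sides of Rbpjl, in the same direction, so the levels of Rbpjl and Matn4 are uncertain where they overlap.

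Of genes over the whole table, those most like a member were taken as the 3 with a symbol, the partner aside, with the largest share of variance between that member's sides, over 25 strains. For both Ocel1 and Colgalt1 they were Gm10654, Slc5a5 and Tmem59l (78.8%). Tmem59l was at 2441 to 3587 scaled counts where Ocel1 was high against 3899 to 5560 where it was low, on the opposite side from Ocel1 in 23 of 25 strains. For Dpp7 and Tmem203 they were Zmynd19 (79.2%), Gm13375 (72.5%) and 1700001O22Rik (70.4%). Zmynd19 was at 411 to 518 against 536 to 659, opposite in 24 of 25 strains. Gm13375 was at 106 to 480 against 115 to 163 and 1700001O22Rik at 43 to 89 against 13 to 68, both on the matching side in 24 of 25. Gm13375 is annotated as antisense, and without strand its reads cannot be told apart from those of a gene on the other strand. All of these lay on the chromosome of their pair.

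For Pnpla5 the most alike genes were Poldip3 (76.0%, matching in 24 of 25 strains), Fam118a (68.4%) and Pkdrej (64.9%, opposite). Poldip3 also led for Efcab6 (64.9%), followed by 1700001L05Rik and Samm50. For Pigt they were Gm14317, Matn4 and Wfdc2. For Tnip1 they were 9530068E07Rik (70.4%, opposite in 23 of 25 strains), Gm49322 on chromosome 10 (59.7%) and Igtp (58.7%). For Rbpjl, Matn4 was followed by Ube2cbp on chromosome 9 (57.5%) and Igsf9 on chromosome 1 (52.6%). All 3 for Lyrm7 were on other chromosomes: Pard3b (60.1%) and D630023F18Rik (57.0%) on chromosome 1 and Dhdh (51.5%) on chromosome 7. Genes on other chromosomes thus appeared for Tnip1, Lyrm7 and Rbpjl and for no other member.

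Sides of different pairs were set side by side as counts. The count that the side sizes alone would give was not worked out for any of them. Ocel1 was on the same side as Efcab6 in 10 of 25 strains, as Tnip1 in 13, as Pigt in 15 and as Dpp7 in 12. Efcab6 was on the same side as Tnip1 in 12, as Pigt in 14 and as Dpp7 in 13. Tnip1 was on the same side as Pigt in 17 and as Dpp7 in 8. The 2 pairs on chromosome 2 had Pigt and Dpp7 on the same side in 12 of 25 strains. The partners within those pairs matched in 22 and 25, but they were chosen for that match. Scg5, a secretory granule gene also on chromosome 2, was at 12654 to 24836 in 8 strains against 2048 to 3195 in the others, on the side of Pigt in 14 strains, of Rbpjl in 15 and of Dpp7 in 13. Tuba1c, an alpha-tubulin gene on chromosome 15, was at 3073 to 4390 in 7 strains against 124 to 338 in the others, on the side of Efcab6 in 16 strains and of Pnpla5 in 17.

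The strain name ending is the one grouping the labels give, and it was not used to choose the genes. None of the 10 genes passed the test between RwwJ and TyJ strains. By limma with Benjamini-Hochberg adjustment over 16152 genes, 0 genes were called (0%), with 2440 (15.1%) at an unadjusted p under 0.05; of the 10 genes, 0 were at an unadjusted p under 0.05. With array weights limma called 6 genes and without BXD48 it called 3, and none of these calls was a member. Their adjusted p by limma ran from 0.517 to 0.941, and over every alternative from 0.323 to 0.9997. The two-sided exact permutation test over all 2042975 splits gave each gene alone p = 0.227 to 0.873.

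Efcab6 had the largest difference, with 50 ± 50.6 scaled counts in 9 RwwJ strains against 77.9 ± 63.4 in 16 TyJ strains (SD), a log2 difference of -0.72 ± 0.55 (SE; adjusted p by limma 0.517). Efcab6 was on the upper side in 3 of 9 RwwJ and 9 of 16 TyJ strains. With the muscle, erythroid and myelinating Schwann scores as covariates, its difference was -1.23 and that of Pnpla5 was -1.33, against -0.35 for Pnpla5 without them (adjusted p by limma with covariates 0.323 and 0.476). Rbpjl was at 25.2 ± 11.5 in RwwJ against 22.9 ± 13.1 in TyJ strains, a log2 difference of 0.24 ± 0.34. Ocel1 was at 610 ± 181 against 609 ± 222, a log2 difference of 0.04 ± 0.21, with the upper side in 6 of 9 RwwJ and 9 of 16 TyJ strains. Both levels of every gene were present in both sets of strains, with 3 to 7 of 9 RwwJ and 7 to 12 of 16 TyJ strains on the upper side.

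**Figure D5:**
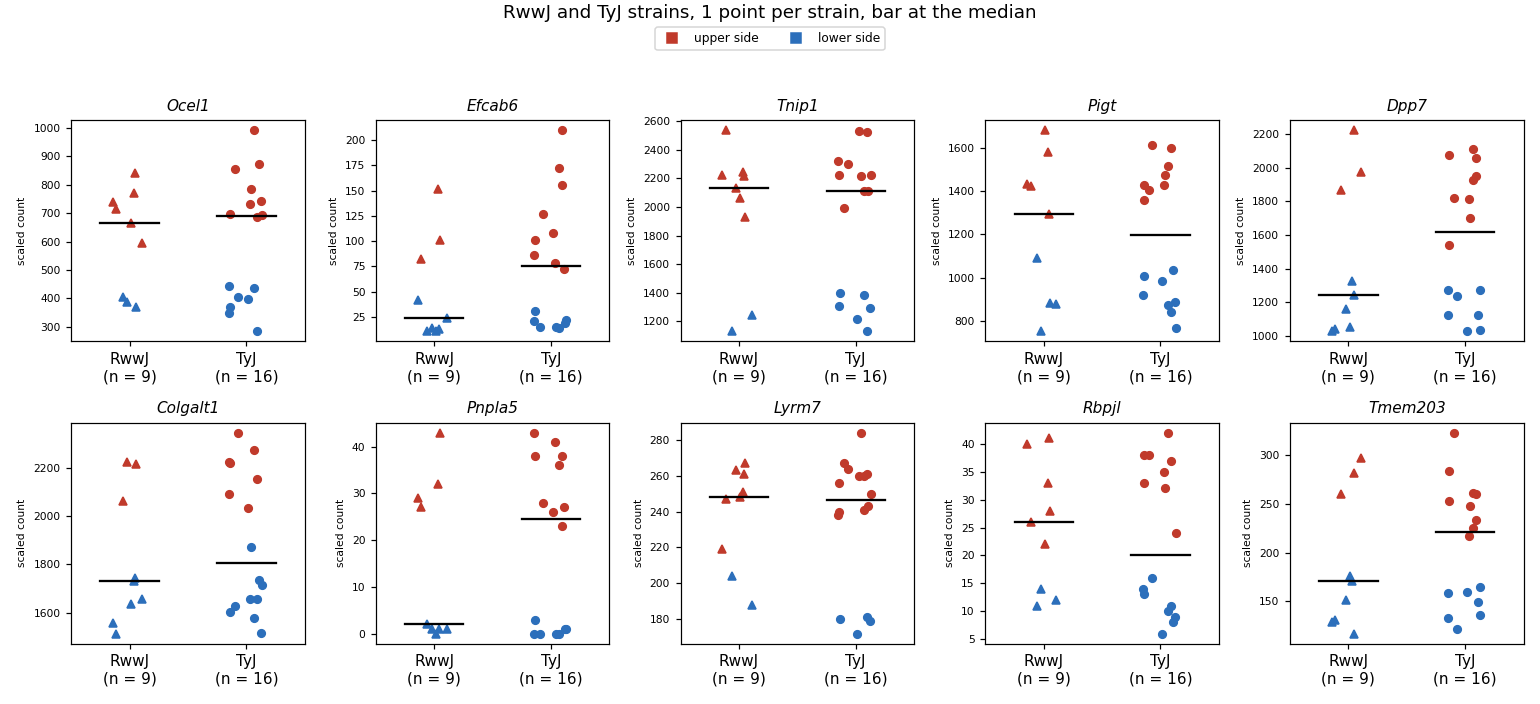
Scaled count (vertical axis) of each gene in 9 RwwJ and 16 TyJ strains (horizontal axis), 1 point per strain in the colour of its side, with a bar at the group median. Both sides occur in both groups for all 10 genes, and the groups overlap in every panel.

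Genes of the same pathways and families were read beside the members, from 10 lists in which 70 genes were tested, 60 of them not members. None of the 60 met the 2-level criterion (1.85% of all tested genes), and by limma 0 were called between RwwJ and TyJ strains, with 4 of 60 at an unadjusted p under 0.05, against 15.1% of all tested genes. Those 4 were Rnf11, Uqcc3, Uqcrfs1 and Efcab10, all lower in RwwJ (adjusted p by limma 0.290 to 0.330). Over all tested genes at that level, 1440 were lower in RwwJ and 1000 higher. The highest share of variance between a gene's own sides was 84.0%, for the complex III assembly factor Uqcc1, at 1891 to 2508 scaled counts.

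Of the other GPI transamidase subunits, Pigk was at 2598 to 3422 scaled counts and Pigs at 1791 to 2819. Of the collagen-modifying enzymes, the related galactosyltransferase gene Colgalt2 was at 1276 to 2071 and the lysyl hydroxylase gene Plod3 at 1214 to 1722. Among A20 partners, Tax1bp1 was at 5700 to 8221, Rnf11 at 3728 to 5485 and Itch at 1762 to 2320. Beside Lyrm7, the Rieske protein it assists, Uqcrfs1, was at 2860 to 5177 and Uqcc2 at 1896 to 5663. These genes varied between strains, and none with a share of 85% between sides.

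Rbpj itself was at 593 to 938 scaled counts, Notch2 at 544 to 2310 and Hey2 at 514 to 1275. Among patatin-like phospholipases, Pnpla6 was at 1872 to 2785, Pnpla8 at 1682 to 2033 and Pnpla2 at 1054 to 1927, all far above the 0 to 43 of Pnpla5 on the same scale, without regard to length. Dpp10 was at 3841 to 6459, Dpp8 at 2769 to 4691 and Dpp9 at 1560 to 2170. Ell2 and Ell, which share a domain with Ocel1, were at 510 to 768 and 375 to 522. Tbk1 and Irf3 of the STING pathway were at 1253 to 1747 and 674 to 969, and Efcab14, Efcab1 and Efcab2 at 720 to 1082, 132 to 357 and 145 to 216. Their levels are given as ranges over all 25 strains, since none met the criterion.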

How the data were processed

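RNA sequencing of dorsal root ganglia of 25 strains was read from 1 deposited table of 16220 genes. The tools named are HTSeq, TopHat2 2.0.9 and CASAVA 1.8.0, and the builds mm9 and NCBIM37, per the submitters' processing notes, which give no role, order or setting here. The authors deposited a normalized score, whole numbers that by their own pattern are read counts scaled to a common level and rounded, so no count model was fitted. The step between low values gave each library's scaling factor, 0.622 to 1.25, with a clear step in 23 of 25 libraries (BXD36 and BXD44 aside). Scaled totals divided by it gave 20020000 to 40150000 estimated reads, median 23100000. Intervals cover counting error only. No 2 libraries agreed within sampling noise (lowest chi-square per gene 13.1, BXD9 and BXD77).

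Values were taken as log2(scaled count + 1) over 16152 genes, a mean scaled count of 10 or more being required; 68 were left out and all 10 members passed. Symbols and gene order came from GENCODE M21, of a later build than the table: 15697 identifiers had an entry, 96.8% of tested genes were annotated, and no coordinates were carried over. Splits with at least 5 strains a side were described with no test. RwwJ and TyJ strains were compared with limma 3.58.1 (R 4.3.3), trended prior, two-sided, Benjamini-Hochberg threshold 0.05, and per gene by exact permutation. Relations within sides used exact permutation under 10 strains and 100000 permutations otherwise, in Python 3.11.15 with SciPy 1.17.1. The code was tested on simulated data. Alternatives changed the pseudocount (10), the filter, the scaling, the split, the neighbours and the strains used.

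Named genes were all members, the 3 genes most alike to each, every tested gene between partners, the nearest outer ones, and up to 3 of highest mean per pathway list. Genes of share 50% or more around a pair, BXD-specific values of Matn4 and Gm14317, Acsl6, Wfdc2 and the 4 list genes at an unadjusted p under 0.05 were named after their values were seen. Members and lists were chosen with earlier results of these data known.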

Additional observations from a re-analysis of the deposited data

How the results depend on the processing

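A step is positive by construction, so its sign says nothing about stability. Of 90 recomputed steps 81, and of 45 recomputed agreements 43, moved by less than the spread. With 10 added before logs the step was 2.19 for Efcab6, 1.93 for Pnpla5 and 1.07 for Rbpjl. With the muscle, erythroid and myelinating Schwann scores regressed out it was 0.55 for Pigt, 0.52 for Dpp7 and 0.56 for Tmem203, 6 strain placements moved, in Pnpla5, Dpp7 and Tmem203, and 8 of the 10 genes fell under the 85% criterion. Rbpjl did so without BXD36, Lyrm7 in TyJ strains alone, and Efcab6, Pigt and Rbpjl in RwwJ strains alone. In TyJ strains alone the step was 5.21 for Pnpla5, and in RwwJ strains alone 0.33 for Lyrm7 and 0.998 for Tmem203. Efcab6 and Pnpla5 then agreed in 100% of strains in either set alone, and Tnip1 and Lyrm7 in 81.2% of TyJ and 88.9% of RwwJ strains, against 92% in all and 88% with the split at the largest gap. Dpp7 and Tmem203 agreed in 92% with the scores regressed out, against 100%. The 2-level neighbours were 4 with 20 genes a side, 6 at a criterion of 80% and 1 at 90%, against 2 of 129 in the main setting. The share of all tested genes was worked out at 85% only (1.85%). The counts at 80% and 90% therefore have no background to be read against, and the number of genes with 20 a side is not given here. Genes called between RwwJ and TyJ strains were 6 with array weights, and 0 to 3 with 1 strain left out, the 3 without BXD48.

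No member was called in any of these. Some of their uncalled differences changed sign. With the 3 scores as covariates Ocel1 was -0.060 and Tnip1 -0.00112, while Efcab6 was -1.23 and Pnpla5 -1.33 with no change of sign. Without BXD21, BXD36 and BXD40 Ocel1 was -0.026 and Pnpla5 0.15. With 1 strain left out Ocel1 ran from -0.0302 to 0.119, Pigt from -0.0371 to 0.108 and Lyrm7 from -0.00462 to 0.0661. Within-side r with the 3 scores regressed out was -0.38 and -0.11 for Ocel1 and Colgalt1 on the upper and lower sides, 0.65 for Efcab6 and Pnpla5 on the upper, 0.39 and 0.45 for Tnip1 and Lyrm7, 0.36 for Pigt and Rbpjl on the lower and 0.62 for Dpp7 and Tmem203 on the upper; none passed the adjusted test. The r values were then negative in the opposite pair and positive in the others, except -0.036 for Pigt and Rbpjl on the upper side. The scores were regressed out before the split, with no term for the side. A part of each step that goes with the scores can thus enter both partners within a side. These r values therefore cannot tell how partners vary within a side, and their changes of sign are not read. For the changes under covariates the cause was not tested.

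No paired analysis was possible because each strain has 1 library and the replicate numbers only follow the order of the strains. Counting limits the sides of Lyrm7 and Rbpjl most, and the lower side of Pnpla5.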
